A study of Arabidopsis thaliana with 14 samples.

Results

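The SAUR (SMALL AUXIN UP RNA) genes of Arabidopsis were examined as targets of the type-B ARABIDOPSIS RESPONSE REGULATORs (B-ARRs), the transcription factors of the cytokinin response. Members were all protein-coding genes of the TAIR10 annotation whose symbol or product contains SAUR, which gave 79 of 27444 genes, with 20, 11, 14, 18 and 16 on chromosomes 1 to 5. Binding was measured by ChIP-seq in whole seedlings, labelled 3 days old, with an anti-GFP antibody against a yellow fluorescent protein fused to each B-ARR. Each condition was deposited as 1 list of peaks combined from at least 2 biological replicates, so that a peak has 1 score and no spread between replicates is held.

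There were 10 lists. ARR1∆DDK, a truncated ARR1 without the receiver domain expressed from the 35S promoter as a Dex-inducible fusion in the study, was treated with 10 µM Dex for 4 h. Its title and treatment identify it, because the line given for it in the labels is that of full-length ARR1. ARR1 was profiled in etiolated seedlings with DMSO for 4 h, and under long days with DMSO for 4 h (ARR1_m), 10 µM 6-BA for 4 h (ARR1_BA) and 10 µM 6-BA for 3 days (ARR1_BA3d), 6-BA being the cytokinin 6-benzylaminopurine. ARR14 was profiled after 3 days of 10 µM 6-BA (ARR14_BA3d), and ARR10 and ARR12 after 4 h of 10 µM 6-BA or DMSO (ARR10_BA and ARR10_m for ARR10). All lists but that of etiolated ARR1 came from long days. The full-length factors were expressed from tagged genomic clones, which keep the neighbouring regulatory sequence, and the line labels name 1 line each. Their tag was Ypet at the C-terminus, whereas the study's methods give ARR1∆DDK a YFP at the N-terminus. All 10 ChIP lists came from tagged plants, and no list of an untagged plant was analysed here. The ARR12 lists are called by their labels. The study's own target table matches them the other way round, since 812 of 812 genes of its ARR12 mock column lay near a peak of the list labelled 6-BA, and 661 near a peak of the list labelled mock.

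SAUR genes are among the earliest genes that auxin switches on, and many encode short proteins that promote cell expansion. SAUR19 and related proteins hold back phosphatases of the PP2C.D group, which otherwise inactivate the proton pumps of the plasma membrane. With the pumps active, the cell wall is acidified and loosened. Many SAUR genes stand in tandem arrays of recent copies, and they are controlled by light, brassinosteroids and temperature besides auxin. B-ARRs bind DNA through a GARP-like domain that recognises an AGAT core.

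Stretches of 121 bases were read from the genome around the summits of ARR1_BA3d for the tandem genes with the highest ranks, because the results below turn on these sites. They are given on the + strand of TAIR10, and capitals mark AGATHY on either strand, a word described for B-ARRs under cytokinin, in which H stands for any base but G and Y for C or T. Only windows that touch no protein-coding gene are shown. The first lies between SAUR14 and SAUR15, which point away from each other, and holds no AGATHY.
SAUR14/SAUR15, chr4:18125777-18125897: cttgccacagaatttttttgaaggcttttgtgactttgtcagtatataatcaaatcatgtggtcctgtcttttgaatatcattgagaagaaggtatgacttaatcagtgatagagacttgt
SAUR28/SAUR27/SAUR73, chr3:980674-980794: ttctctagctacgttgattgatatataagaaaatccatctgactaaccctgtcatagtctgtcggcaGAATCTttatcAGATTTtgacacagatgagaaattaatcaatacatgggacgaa
SAUR51, chr1:28379422-28379542: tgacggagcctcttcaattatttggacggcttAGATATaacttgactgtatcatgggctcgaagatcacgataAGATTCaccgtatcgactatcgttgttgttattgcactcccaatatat
SAUR66/SAUR68, chr1:10322078-10322198: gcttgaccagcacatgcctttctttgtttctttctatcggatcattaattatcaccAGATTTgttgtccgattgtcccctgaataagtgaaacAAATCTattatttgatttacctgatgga
SAUR3/SAUR4, chr4:16596451-16596571: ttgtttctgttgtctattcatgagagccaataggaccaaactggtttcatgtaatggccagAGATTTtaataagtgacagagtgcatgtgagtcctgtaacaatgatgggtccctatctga
The window at SAUR28, SAUR27 and SAUR73 also holds TGTCGG, a word that auxin response factors bind. Each window has its summit at the middle base.

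A gene was called bound in a list when a peak summit with a score of at least 16 lay inside it or within 1.5 kb, the score being the deposited −log10 p-value. In ARR1_BA3d 45 of the 79 SAUR genes were bound (57.0%, 95% Wilson interval 46.0–67.3), against 39.4% of the 27365 other protein-coding genes. ARR14_BA3d bound 47 SAUR genes (59.5%, 48.5–69.6), against 43.8% of the others. The share was 45.6% in ARR10_BA (36 genes, 35.0–56.5) and 32.9% in ARR10_m (26 genes, 23.6–43.9), against 24.7% and 18.9% of the others in the same lists. In these 4 lists the interval of the SAUR share lay above the share of the other genes. The intervals cover counting error only and treat the genes as independent. Neighbouring SAUR genes share peaks, so that the intervals are too narrow for this family.

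In the remaining lists the interval held the share of the other genes or the counts were very small. ARR1_BA bound 21 SAUR genes (26.6%, 18.1–37.2), against 20.3% of the others. ARR1∆DDK bound 9 (11.4%, 6.11–20.3) against 14.3%, and ARR1 in etiolated seedlings bound 5 (6.33%, 2.73–14) against 6.68%. The list labelled ARR12 6-BA bound 1 SAUR gene (1.27%) against 3.27% of the others, and the list labelled ARR12 mock bound 24 (30.4%, 21.3–41.2) against 24.2%. ARR1_m bound SAUR14 and SAUR15 alone (2.53%, 0.697–8.77), through 1 shared peak, against 0.409% of the others. With every deposited peak of ARR1_m, whatever its score, 22.8% of the SAUR genes and 15.2% of the others had one within reach. The paper reports far more targets for this condition at the same minimum and reach. The reason for the difference was not tested, and every comparison with ARR1_m carries it. The lists hold 1513 to 11499 peaks and end at different scores, from 4.88 in ARR1_m to 31.21 in ARR1∆DDK, and no read counts were held, so the depth behind them is unknown. Those of ARR14_BA3d and etiolated ARR1 also end above 16, at 28.27 and 20.60. In these lists and in ARR1∆DDK the minimum is in effect higher than 16.

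**Figure D1:**
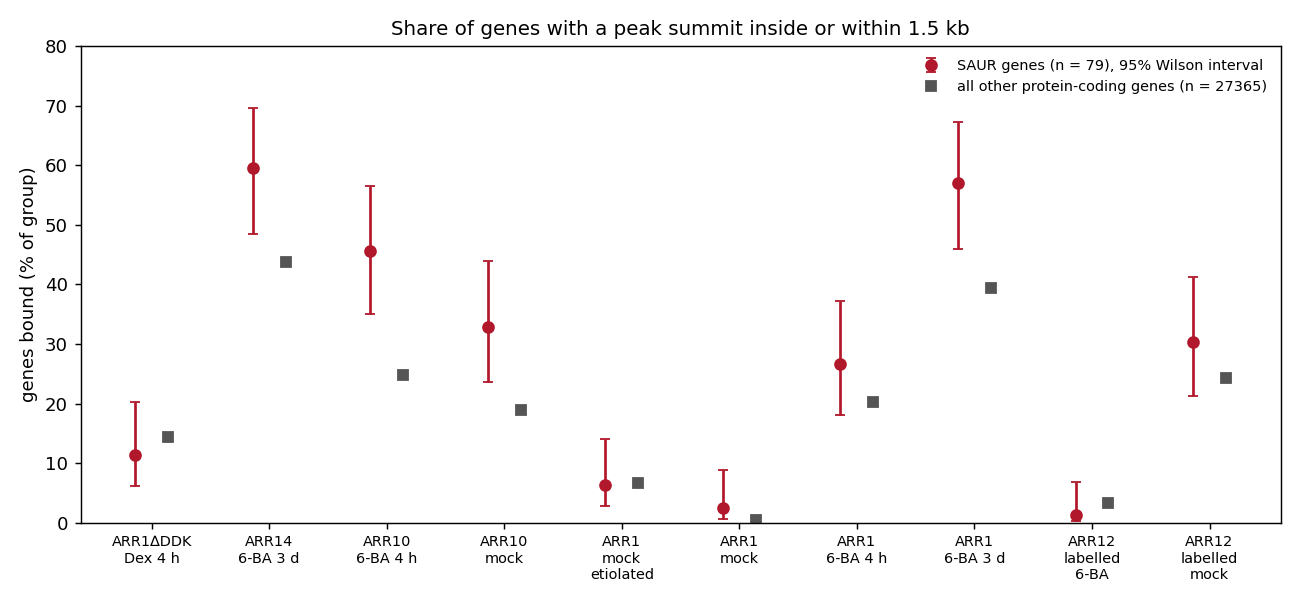
Share of genes bound (percent, y axis) in each of the 10 lists (x axis), with circles for the 79 SAUR genes and bars for their 95% Wilson intervals, and squares for the 27365 other protein-coding genes. The circle stands highest in ARR14_BA3d at 59.5% and lowest in the list labelled ARR12 6-BA at 1.27%.

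Across the 10 lists, 54 SAUR genes (68.4%) were bound at least once, against 54.7% of the other protein-coding genes, and 25 (31.6%) were bound in at least 5 lists, against 18.4%. At 6 lists or more the shares were 15.2% and 13.8%. SAUR51, SAUR49, SAUR50 and SAUR69 were bound in 8 lists, and SAUR77, SAUR14 and SAUR15 in 7. SAUR78, SAUR59, SAUR34, SAUR3 and SAUR4 were bound in 6. Of these 12 genes, 6 belong to arrays on chromosome 4, SAUR49, SAUR50, SAUR3 and SAUR4 to one and SAUR14 and SAUR15 to another.

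Of the 25 SAUR genes bound in no list, 15 had no deposited peak of any score within reach, namely SAUR60, SAUR8, SAUR42, SAUR47, SAUR33, SAUR31, SAUR17, SAUR25, SAUR37, SAUR22, SAUR23, SAUR76, SAUR75, SAUR30 and SAUR11. The other 10 (SAUR58, SAUR71, SAUR40, SAUR12, SAUR46, SAUR26, SAUR48, SAUR72, SAUR39 and SAUR43) had weaker peaks of at most 15.92. The study placed reads that map to 1 position only, and recent copies could lose reads in this way. Of all words of 50 bases inside the members or within 1.5 kb, at least 85.8% occur once in the genome for every member, and at least 95% do for 70 of the 79. The lowest value belongs to SAUR23, which was bound in no list.

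The higher share was seen in the tandem arrays. When neighbours at most 10 kb apart were joined, 37 SAUR genes fell into 9 clusters, 7 of them with 3 genes or more, and 42 stood alone. In ARR1_BA3d 30 of the 37 tandem genes were bound (81.1%), against 15 of the 42 single ones (35.7%) and 39.4% of the other protein-coding genes. The shares of tandem and single SAUR genes were 75.7% and 45.2% in ARR14_BA3d, 67.6% and 26.2% in ARR10_BA, 51.4% and 16.7% in ARR10_m, and 40.5% and 14.3% in ARR1_BA. The single genes thus stood near the other genes or below them in these lists. The list labelled ARR12 mock did not show this order, with 29.7% of tandem and 31% of single genes bound, and in ARR1∆DDK the values were 10.8% and 11.9%.

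Tandem genes also shared peaks. Of 46 peaks at SAUR genes in ARR1_BA3d, 13 had several SAUR genes within reach, at most 3 to a peak. Counted by locus, with each cluster taken once, 24 of 51 SAUR loci were bound in ARR1_BA3d (47.1%) and 28 in ARR14_BA3d (54.9%). In ARR10_BA 19 were bound (37.3%), and in ARR10_m 14 (27.5%). A cluster counted as bound when any of its genes was, and loci of other genes were not counted. These shares therefore cannot be set against the per-gene shares of the other genes. When each peak was given to the nearest protein-coding gene alone, the SAUR share in ARR1_BA3d was 35.4%, against 25.8% of the others, and in ARR10_BA it was 30.4% against 16.7%. A fixed window of 1.5 kb to each side of the TSS, in which gene length plays no part (median 813 bp for SAUR genes and 2081 bp for the others), gave 51.9% against 29.2% in ARR1_BA3d and 44.3% against 17.5% in ARR10_BA.

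**Figure D2:**
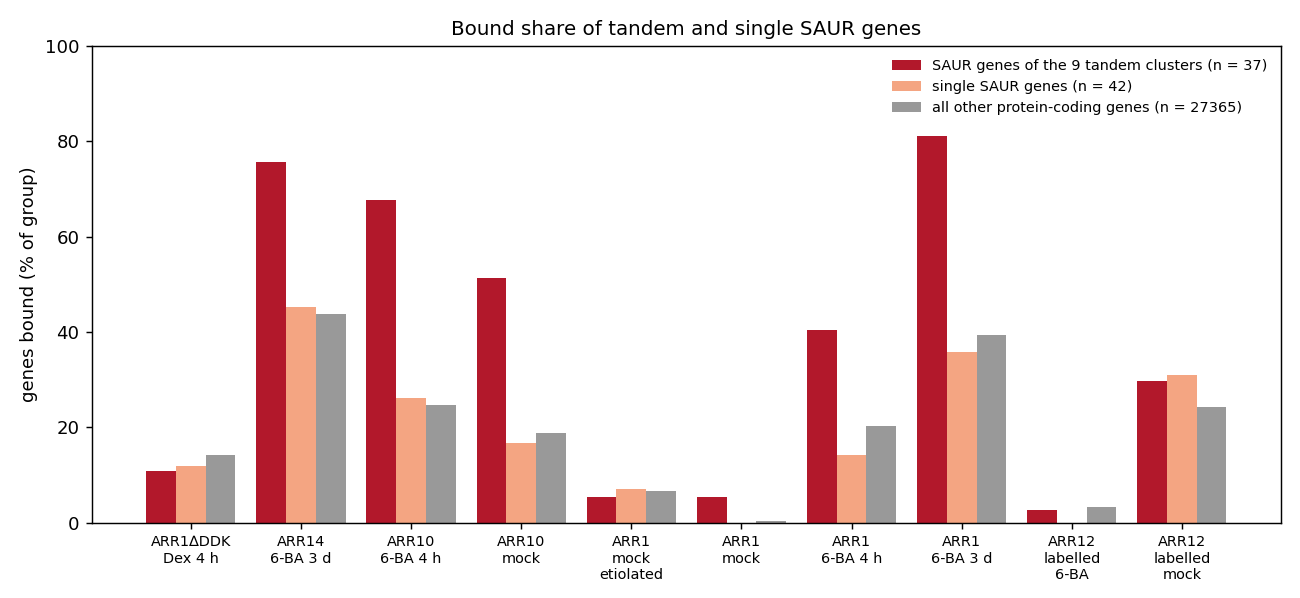
Share of genes bound (percent, y axis) in each list (x axis) for the 37 SAUR genes of the 9 tandem clusters, the 42 single SAUR genes and the 27365 other protein-coding genes. The tandem bar reaches 81.1% in ARR1_BA3d and 75.7% in ARR14_BA3d, while the single bar is at 35.7% and 45.2% there.

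The highest scores of the family belonged to the shared promoter of SAUR14 and SAUR15. SAUR15 (AT4G38850, chromosome 4, 18126057–18126829, + strand), also known as SAUR-AC1, is a classic auxin-induced gene, and SAUR14 (AT4G38840, 18124978–18125559, − strand) is transcribed away from it. For ARR1 their common peak scored 16.38 in mock seedlings (ARR1_m), 91.79 at 4 h of 6-BA and 210.2 at 3 days. It scored 276.08 in ARR14_BA3d, 86.81 in ARR10_BA and 70.16 in ARR10_m, and 106.02 in that labelled ARR12 mock. Among all bound protein-coding genes it stood at percentile 0.158 in ARR14_BA3d, 0.955 in ARR10_BA and 0.749 in ARR10_m, where 0 is the highest score, and at 0.358 in ARR1_BA and 0.102 in ARR1_BA3d. In ARR1_m, where 112 other protein-coding genes were bound, it stood low, at percentile 86. Scores depend on the depth behind a list, which is unknown, so scores of different lists do not measure a change in binding. The 6 other summits lay within 100 bp of the ARR1_BA3d summit, which is at −220 bp from the SAUR15 TSS (negative is upstream). ARR1∆DDK and etiolated ARR1 had no deposited peak within reach of SAUR14 or SAUR15.

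SAUR13, the first gene of the same array, stands at the edge of the rule. The nearest summit lay upstream of it in every list, 1445 to 1644 bp away, so that it counted as bound where the distance was 1487 (ARR1∆DDK, score 94.43), 1455 (ARR1_BA, 50.32), 1494 (ARR1_BA3d, 53.84, and ARR10_m, 22.35) or 1476 bp (labelled ARR12 mock, 20.35). It was left out at 1576 bp in ARR14_BA3d (63.55), 1512 bp in ARR10_BA (35.44) and 1536 bp in etiolated ARR1 (21.94). In these 8 lists the summit scored above the minimum, and its distance decided whether SAUR13 counted as bound. In the list labelled ARR12 6-BA the summit was within reach, at 1445 bp, but scored 8.43, and in ARR1_m it scored 6.21 at 1644 bp. At the other end of the array SAUR16, known for its part in cotyledon opening in light, was bound in 5 lists, with 61.19 in ARR1_BA3d and 107.32 in ARR14_BA3d.

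SAUR50 (AT4G34760, chromosome 4, 16582183–16583075, − strand), also linked to cotyledon opening, had its summit inside the gene, 9 to 114 bp from the TSS, in all 8 lists that bound it. It scored 132.53 in ARR1∆DDK, where it was the highest SAUR gene at percentile 5.23, and 23.32 in etiolated ARR1. In long days it scored 83.89 in ARR1_BA and 175.15 in ARR1_BA3d, with no peak of 16 in ARR1_m. The ARR14_BA3d score was 243.06, the ARR10 scores were 77.18 in ARR10_BA and 51.14 in ARR10_m, and the list labelled ARR12 mock gave 72.95. Its neighbour SAUR49 was bound in the same 8 lists at lower scores, from 16.84 in ARR10_m to 112.77 in ARR14_BA3d. Farther along the array SAUR3 and SAUR4 shared a peak upstream of SAUR4, at 44.44 in ARR1_BA, 88.81 in ARR1_BA3d, 149.94 in ARR14_BA3d and 72.5 in ARR10_BA.

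SAUR51 was the only SAUR gene of the list labelled ARR12 6-BA, with a score of 18.01. Its highest peak lay about a kilobase past the end of the gene, with summits 1971 to 2144 bp from the TSS, on the side of SAUR52. The score was 98.99 in ARR1∆DDK, 59.9 in ARR1_BA, 159.4 in ARR1_BA3d and 269.16 in ARR14_BA3d. ARR10_BA had 66.39 and ARR10_m 21.16 there, and the list labelled ARR12 mock 39.85. SAUR69, bound in 8 lists as well, also had its highest summits downstream of the gene, at scores from 19.29 in ARR1_BA to 80.86 in ARR14_BA3d.

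**Figure D3:**
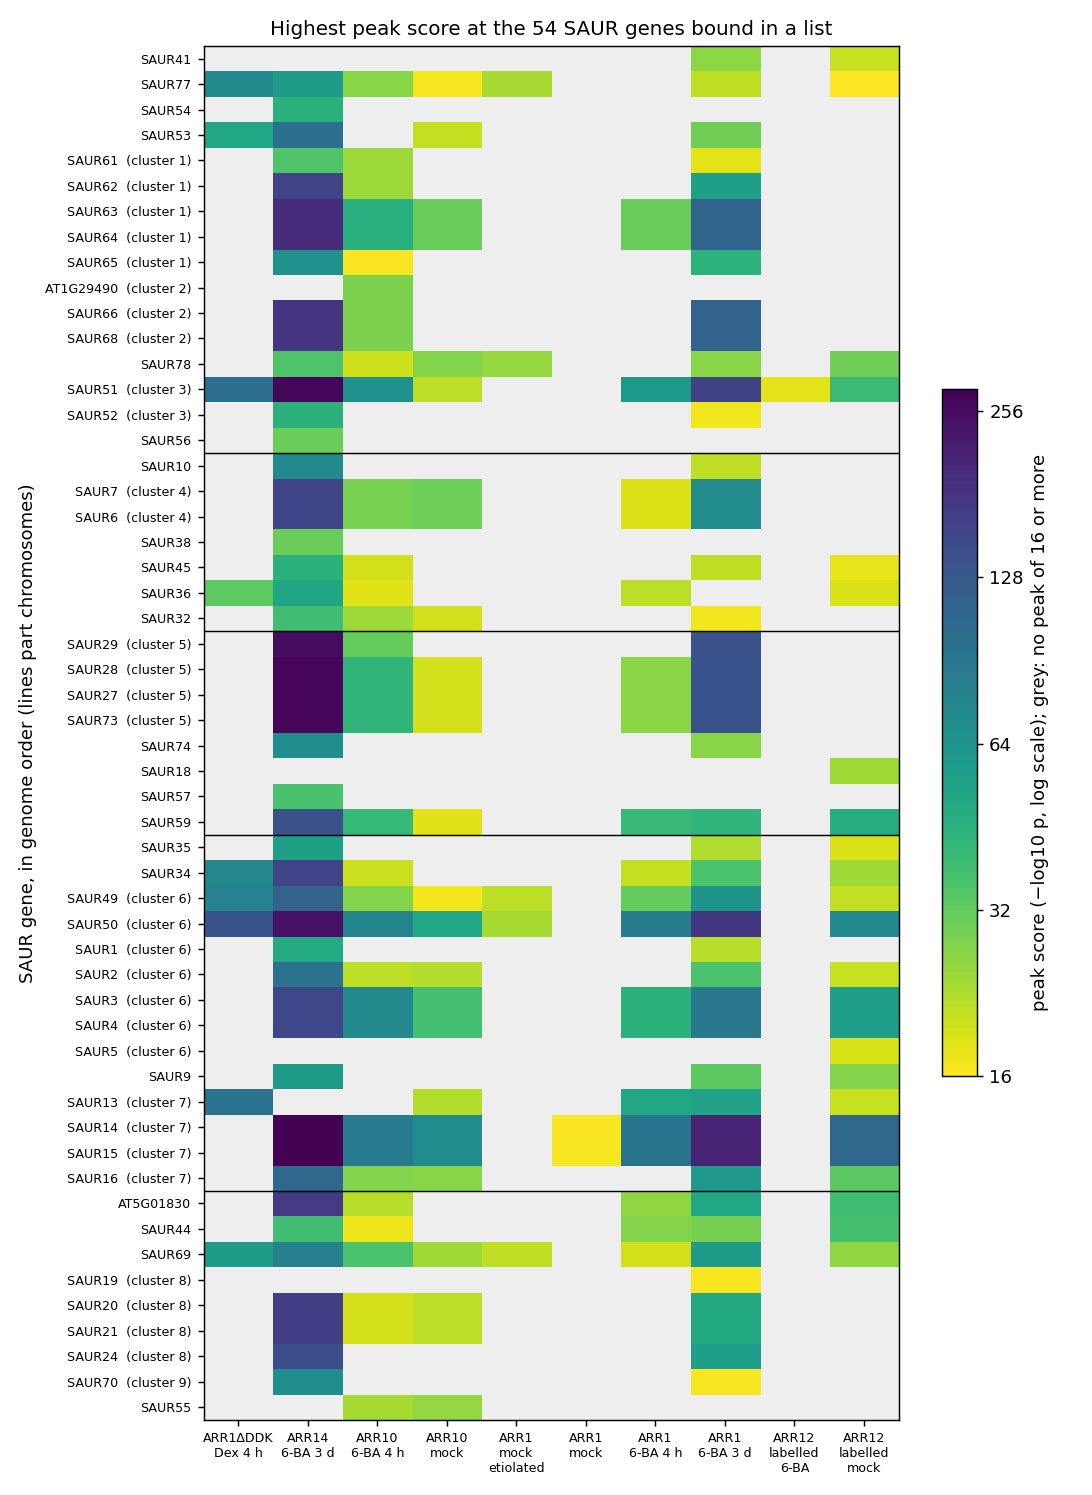
Highest peak score (−log10 p, logarithmic colour scale) of each of the 54 SAUR genes bound in at least 1 list, in genome order (y axis), in the 10 lists (x axis), with grey where no peak of 16 was within reach. Runs of equal colour within a cluster are shared peaks, and the darkest cells are SAUR14 and SAUR15 in ARR14_BA3d at 276.08.

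Another set of arrays was bound strongly by some factors and not at all in other lists. On chromosome 1 these were the cluster SAUR61 to SAUR65, in which SAUR63 promotes organ elongation, and the cluster AT1G29490, SAUR66 and SAUR68. On chromosome 2 it was SAUR7, SAUR6 and SAUR12, on chromosome 3 SAUR29, SAUR28, SAUR27, SAUR73 and SAUR26, a group known for growth in warmth, and on chromosome 5 SAUR19 to SAUR24. Of the 22 genes of these 5 clusters, which were grouped after their values were seen, 16 were bound in ARR14_BA3d, 16 in ARR10_BA and 9 in ARR10_m. ARR1 bound 0 of them in mock, 7 at 4 h and 17 at 3 days of 6-BA. None was bound in ARR1∆DDK, in etiolated ARR1 or in either ARR12 list. Of the other protein-coding genes, 43.8% were bound in ARR14_BA3d, 24.7% in ARR10_BA and 18.9% in ARR10_m. For ARR1 these shares were 0.409% in mock, 20.3% at 4 h and 39.4% at 3 days. They were 14.3% in ARR1∆DDK, 6.68% in etiolated ARR1, and 3.27% and 24.2% in the lists labelled ARR12 6-BA and mock. The clusters were grouped by these values, so that 0 of 22 genes in a list follows from the grouping and tells little. In ARR1_m, etiolated ARR1 and the list labelled ARR12 6-BA the shares of the other genes are also small. The other arrays of 3 genes or more, from SAUR49 to SAUR5 and from SAUR13 to SAUR16, together with SAUR51 and SAUR52, hold 13 genes, of which 4 were bound in ARR1∆DDK, 2 in etiolated ARR1 and 11 in that labelled ARR12 mock. The remaining cluster, the pair SAUR70 and SAUR76, had SAUR70 bound in ARR1_BA3d (16.48) and ARR14_BA3d (69.04) and neither gene in any other list.

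The values at single genes of these clusters are given as a description, since the clusters were grouped by them. At SAUR28, SAUR27 and SAUR73 a common peak, at −172 bp from the SAUR28 TSS, scored 26.26 in ARR1_BA and 135.9 in ARR1_BA3d. It scored 270.31 in ARR14_BA3d, 43.08 in ARR10_BA and 19.4 in ARR10_m, and the array had no deposited peak of any score in ARR1∆DDK, etiolated ARR1, ARR1_m or the ARR12 lists. The list of ARR1∆DDK ends at a score of 31.21 and that of etiolated ARR1 at 20.60, so weaker peaks could not appear there. SAUR29, in the same array, had a separate summit at its TSS with 137.06 in ARR1_BA3d, 254.33 in ARR14_BA3d and 31.54 in ARR10_BA. At SAUR63 and SAUR64 the scores were 30.7 in ARR1_BA, 111.17 in ARR1_BA3d, 194.0 in ARR14_BA3d, 45.73 in ARR10_BA and 30.65 in ARR10_m. SAUR66 and SAUR68 had 112.27 in ARR1_BA3d, 182.45 in ARR14_BA3d and 28.12 in ARR10_BA. The shared peak of SAUR7 and SAUR6, close to the SAUR6 TSS, had 18.57, 70.73 and 153.91 in ARR1_BA, ARR1_BA3d and ARR14_BA3d, and a peak of 15.47, just under the minimum, in the list labelled ARR12 mock.

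Within the SAUR19 to SAUR24 array, whose products promote cell expansion, binding was uneven. SAUR20 and SAUR21 had equal scores, 49.39 in ARR1_BA3d, 163.95 in ARR14_BA3d, 19.23 in ARR10_BA and 21.16 in ARR10_m. SAUR24 had 56.39 in ARR1_BA3d, the highest of the array there, and 141.11 in ARR14_BA3d, and SAUR19 had 16.48 in ARR1_BA3d alone. SAUR22 and SAUR23 had no peak. In the 5 clusters the share of unique words had a median of 97.7% and a lowest value of 85.8%, while in the 13 genes of the arrays from SAUR49, SAUR13 and SAUR51 it was at least 99.7%. The part of read placement in the split was not tested.

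**Figure D4:**
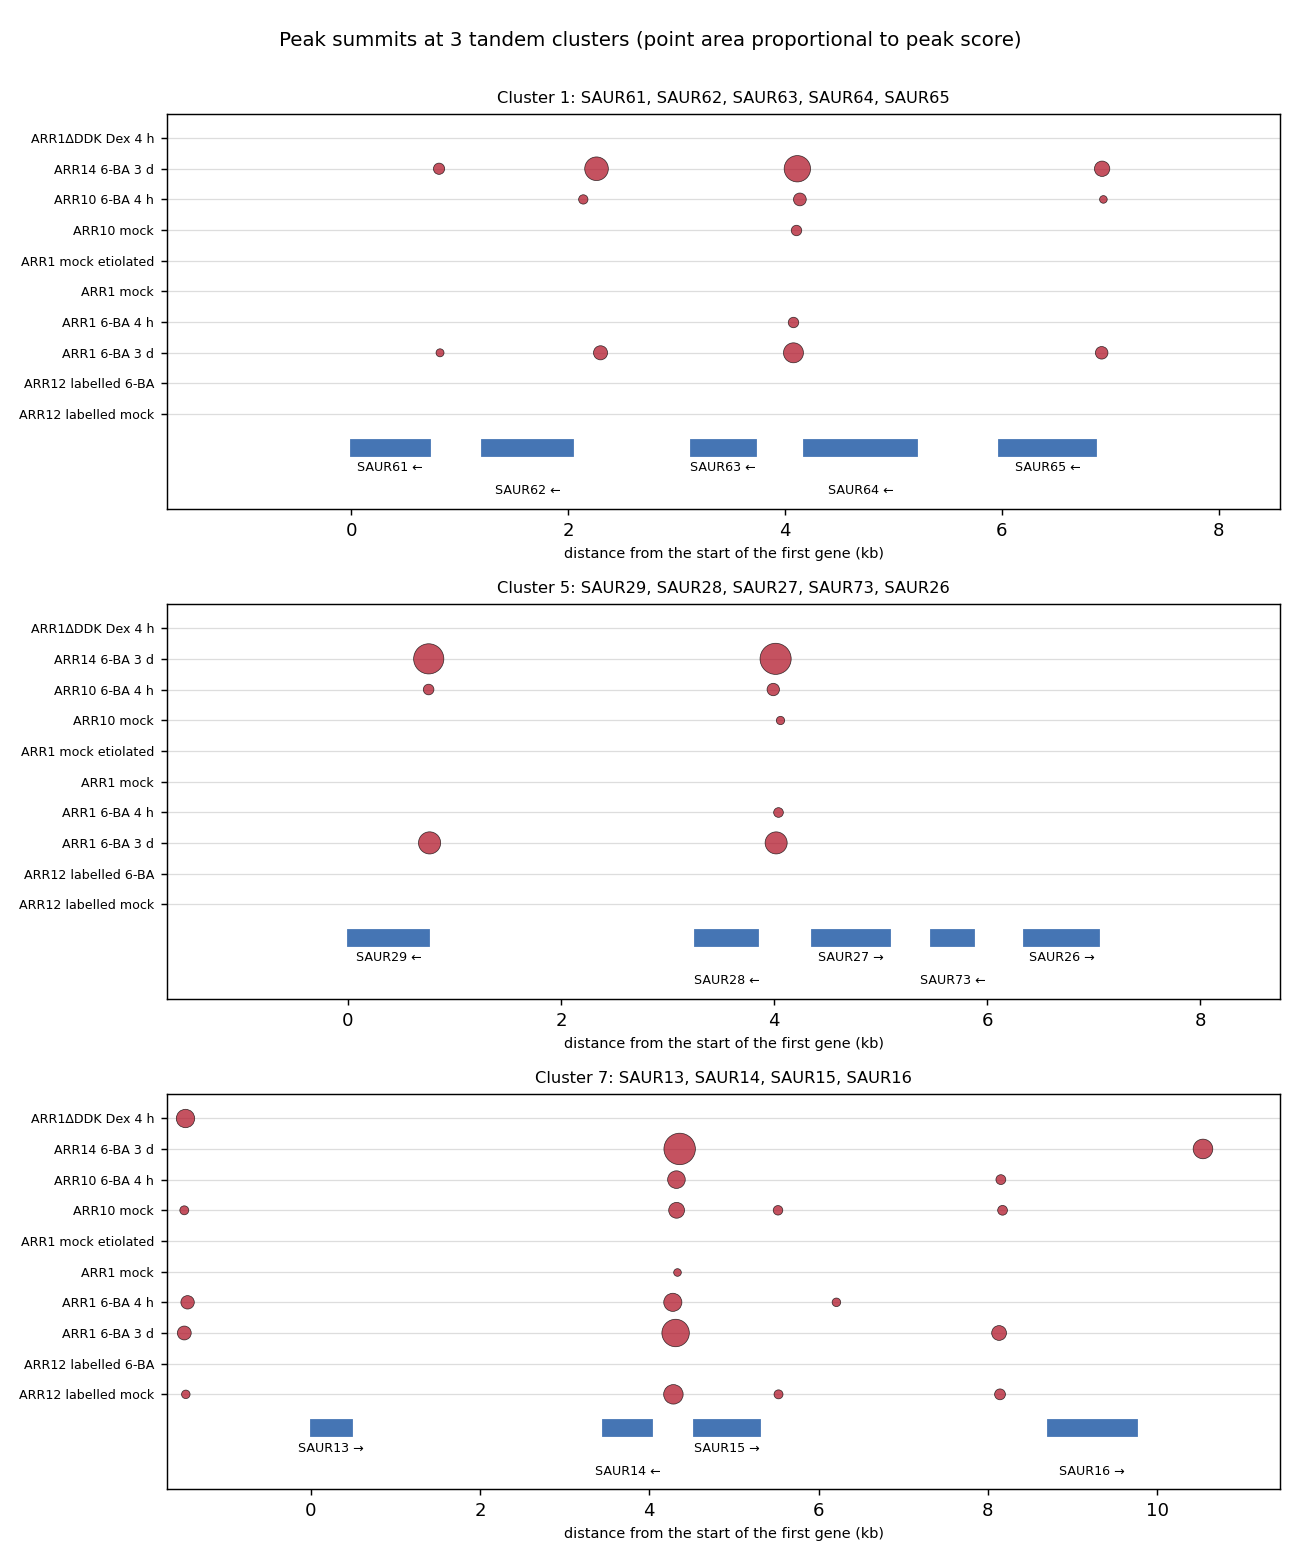
Peak summits with scores of at least 16 at 3 tandem clusters, by distance from the start of the first gene (kb, x axis) in each list (y axis), with point area proportional to the score, and blue boxes and arrows for the SAUR genes and their strand. The 2 upper clusters have no point in ARR1∆DDK, etiolated ARR1, ARR1_m or the ARR12 lists, whereas the cluster of SAUR14 has points in 7 lists between SAUR14 and SAUR15.

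The same was asked of genes that were bound in ARR14_BA3d, ARR10_BA and ARR1_BA3d at once. These are the lists with the highest SAUR shares, and they bound most genes of the clusters grouped above. Lower SAUR shares in the remaining lists can follow from this choice. There were 33 such SAUR genes and 5192 other protein-coding genes. Of these, 51.5% of the SAUR genes and 74.7% of the others were bound in the list labelled ARR12 mock, and 18.2% and 49.2% in ARR1∆DDK. In etiolated ARR1 the shares were 15.2% and 27.1%, and in ARR1_BA 57.6% and 78.3%. In ARR10_m they were 69.7% and 71.9%, and in the list labelled ARR12 6-BA 3.03% and 12.9%. ARR1_m went the other way, with 6.06% of the SAUR genes and 1.23% of the others. These shares describe the lists and were not tested.

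Next, the lists were compared gene by gene. ARR1_BA3d and ARR1_BA had 20 bound SAUR genes in common (44.4% of ARR1_BA3d and 95.2% of ARR1_BA), 25 were bound at 3 days alone and SAUR36 at 4 h alone. For the other protein-coding genes the shared part was 46.8% and 90.7%, and the genes of 3 days alone were 31.6% of the SAUR genes, against 21% of the others. SAUR36, which acts in leaf senescence, scored 13.46 in ARR1_BA3d, under the minimum, against 21.28 in ARR1_BA. Of the 25 genes bound at 3 days alone, 14 had a weaker deposited peak at 4 h. Among the 20 shared genes 17 ranked higher at 3 days (85%), against 74.4% of the 5046 other shared genes. In ARR1_BA the SAUR genes just inside the minimum were SAUR7 and SAUR6 at 18.57, and those just outside were SAUR9 and SAUR78 at 15.65 each.

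ARR1_BA bound 19 SAUR genes that ARR1_m did not, and ARR1_m bound none of its own. These were 24.1% of the SAUR genes, against 20% of the other protein-coding genes in the same class. Both shares rest on a mock list that yields far fewer targets than the paper reports. The number of SAUR genes in this class also depends on how deep the lists reach. It was 30 with every deposited peak and 5 with the 1513 top peaks of each list. The same holds for ARR10. At the minimum of 16, ARR10_BA and ARR10_m shared 24 SAUR genes (66.7% and 92.3% of them), 12 were bound in ARR10_BA alone and SAUR53 and SAUR13 in ARR10_m alone. The shared part was 66.2% and 86.5% for the other protein-coding genes, and the genes of ARR10_BA alone were 15.2% of the SAUR genes, against 8.35% of the others. With every deposited peak the direction turned round, with 41 SAUR genes in ARR10_BA and 49 in ARR10_m and 1 gene in ARR10_BA alone. Of the 12 genes, 11 had a weaker peak in ARR10_m. Among the shared genes 58.3% ranked higher in ARR10_BA, as did 58.4% of the other shared genes.

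By the labels, ARR12 bound 1 SAUR gene (SAUR51) under 6-BA, against 24 in mock seedlings, SAUR51 among them. With the lists exchanged, as the study's own table has them, 23 SAUR genes (29.1%) were bound under 6-BA alone, against 21.5% of the other protein-coding genes. None was bound in mock alone, against 0.596% of the others. SAUR5 (18.91) and SAUR18 (24.08) had a peak of 16 or more only in the ARR12 mock-labelled list.

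Between factors, ARR10_BA and ARR1_BA shared 20 SAUR genes (55.6% and 95.2% of them), with 16 in ARR10_BA alone and SAUR13 in ARR1_BA alone. For the other protein-coding genes the shared part was 71.5% and 86.9%, and 20.3% of the SAUR genes were in ARR10_BA alone, against 7.05% of the others. The tagged ARR1 gene itself limits this pair. Deposited peaks covered 52.2% of the sequence within 50 kb of ARR1 in ARR10_BA and 54.2% in ARR10_m, against 40.2% in ARR1_BA and 3.03% in the list labelled ARR12 6-BA. None of the 79 SAUR genes lies within 50 kb of a tagged gene, and a part of ARR1-line DNA in the ARR10 or ARR14 values was not tested. At 3 days of 6-BA, ARR14_BA3d and ARR1_BA3d shared 42 SAUR genes (89.4% and 93.3% of them), with SAUR54, SAUR56, SAUR38, SAUR36 and SAUR57 in ARR14_BA3d alone and SAUR41, SAUR13 and SAUR19 in ARR1_BA3d alone. Of the other protein-coding genes bound in these lists 75.7% and 84.0% were shared, and 10.6% of all others were in ARR14_BA3d alone, as were 6.33% of the SAUR genes. The median distance between their summits at shared genes was 36 bp, and 32 of the 42 pairs of summits lay within 100 bp. In no other list were SAUR54 (44.44), SAUR56 (30.31), SAUR38 (30.36) and SAUR57 (36.38) bound than in ARR14_BA3d, and AT1G29490 was bound in ARR10_BA alone (28.12).

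ARR1∆DDK and ARR1_BA shared 7 SAUR genes (77.8% and 33.3% of them). SAUR77 and SAUR53 were bound in ARR1∆DDK alone, and both had weaker peaks in ARR1_BA. They were 2.53% of the SAUR genes, against 4.91% of the other protein-coding genes in the same class. Of the other protein-coding genes bound in ARR1∆DDK, 65.7% were bound in ARR1_BA, and of those bound in ARR1_BA, 46.2% were bound in ARR1∆DDK. SAUR77, one of a small ethylene-responsive group with SAUR76 and SAUR78, scored 71.71 in ARR1∆DDK and 23.32 in etiolated ARR1, and its summits lay between −160 and −21 bp from the TSS in the 7 lists that bound it. Etiolated ARR1 and ARR1_m had no SAUR gene in common, since the etiolated list held SAUR77, SAUR78, SAUR49, SAUR50 and SAUR69, and ARR1_m held SAUR14 and SAUR15. The 5 genes of the etiolated list were 6.33% of the family, and 6.51% of the other protein-coding genes were likewise in this list and not in ARR1_m. All 5 genes of the etiolated list were also bound in ARR10_m, as were 81.1% of the other protein-coding genes of that list, while 1.26% of all other genes were in the etiolated list and not in ARR10_m.

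Bound SAUR genes ranked high in some lists and in the middle or low in others. The median percentile was 23.5 in ARR1_BA3d, 23.8 in ARR14_BA3d and 23.9 in ARR1∆DDK, where 50 is the middle of all bound genes. It was 37.3 in ARR1_BA, 45.9 in the list labelled ARR12 mock, 50.3 in ARR10_BA and 51.1 in ARR10_m. In etiolated ARR1 the 5 genes had a median of 71.9, the 2 genes of ARR1_m stood at 86 and the single gene of the list labelled ARR12 6-BA at 66.2. Of the 45 genes in ARR1_BA3d, 12 stood in the top 5% (26.7%), with 8 of 47 in ARR14_BA3d (17%), 6 of 36 in ARR10_BA (16.7%) and 3 of 21 in ARR1_BA (14.3%). Genes that share a peak, such as SAUR14 and SAUR15, are counted separately here, so fewer peaks than genes lie behind these counts. In ARR10_BA the bound share exceeded that of the other genes by 20.8 percentage points, while the median rank was at the middle of the list. This difference in share was 8.46 points with equal numbers of top peaks and 6.55 at a minimum score of 30, where ARR14_BA3d had 21.7 and 17.2 points and ARR1_BA3d 15.7 and 17.1.

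**Figure D5:**
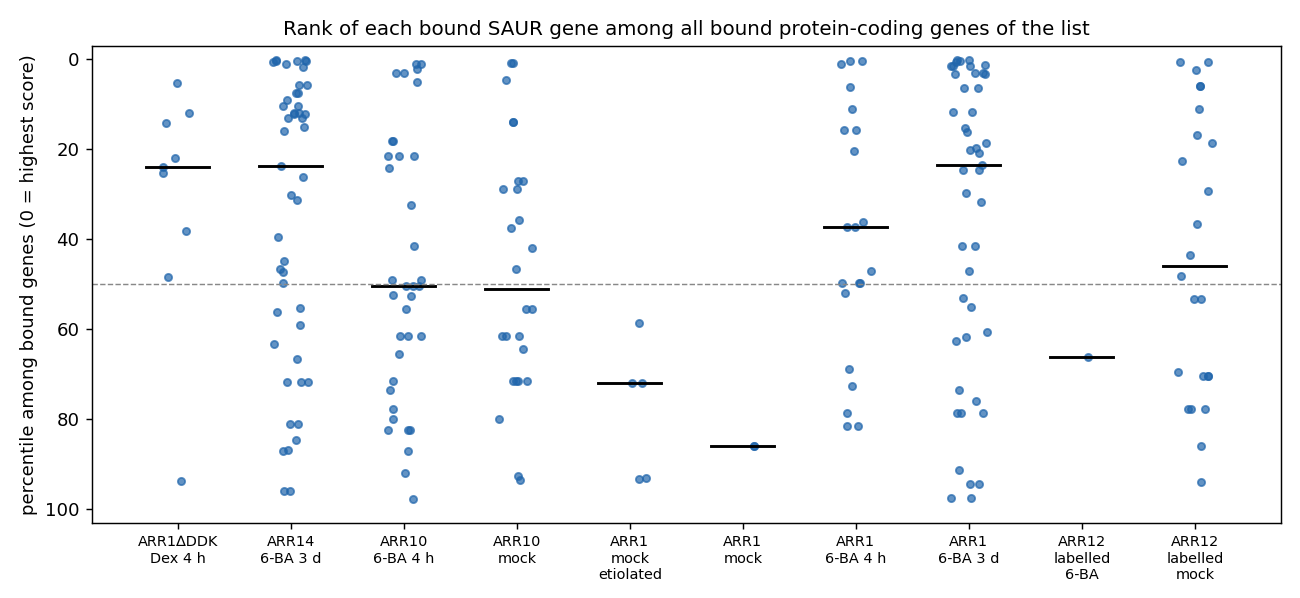
Percentile of each bound SAUR gene among all bound protein-coding genes of its list (y axis, 0 is the highest score), by list (x axis), with points for genes, short lines for medians and a dashed line at 50. Points crowd at the top in ARR1_BA3d and ARR14_BA3d, where the medians are 23.5 and 23.8, and spread evenly in ARR10_BA, where the median is 50.3.

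In the lists with more than 20 bound SAUR genes, summits at SAUR genes lay upstream of the gene more often, and inside it less often, than at the other genes. In ARR1_BA3d 62.2% of the bound SAUR genes had their highest summit upstream and 11.1% inside the gene, against 43.2% and 25.9% of the other bound genes. The upstream shares were 53.2% against 41.9% in ARR14_BA3d, 58.3% against 45.0% in ARR10_BA, 69.2% against 44.0% in ARR10_m, 57.1% against 41.9% in ARR1_BA and 54.2% against 41.0% in the list labelled ARR12 mock. In ARR14_BA3d the downstream share was higher too, 38.3% against 30%, and the inside share was 8.51% against 28.1%. Where few SAUR genes were bound the order varied. The shares were 44.4% against 43.3% in ARR1∆DDK (9 genes) and 40.0% against 48.7% in etiolated ARR1 (5 genes), both genes of ARR1_m had the summit upstream, and the 1 gene of the list labelled ARR12 6-BA had it downstream. The part of the shorter length of SAUR genes in this was not tested.

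Short words were counted at the summits. CACGTG, the G-box that PIF and other bHLH and bZIP factors bind, was in none of the 46 windows of 200 bp at SAUR summits in ARR1_BA3d, which allows a share of up to 6.52%, against 18.5% of the 8979 other windows. It was in none of 42 in ARR14_BA3d (up to 7.14%) against 14.9%, and in none of 34 in ARR10_BA (up to 8.82%) against 15.2%. One window in ARR10_m, at SAUR53, and 2 in the list labelled ARR12 mock, at SAUR18 and AT5G01830, held it, 5% and 8% against 17.2% and 18.0%. Many of these summits recur from list to list, so the lists are not separate counts. CACGTG was not missing from the promoters, taken as 1500 bp before to 100 bp after the TSS, where 13 of 79 SAUR genes (16.5%) and 21.2% of the others had it.

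AGATHY was less frequent at SAUR summits than at the others in several lists, at 56.5% against 67.0% in ARR1_BA3d, 78.6% against 82.4% in ARR14_BA3d, 55.9% against 72.0% in ARR10_BA and 36.0% against 60.8% in the list labelled ARR12 mock. In ARR1∆DDK the shares were 81.8% and 83.6%. The gap depended on the width of the window. At 100 bp the shares were 39.1% against 45.8% in ARR1_BA3d, 66.7% against 66.8% in ARR14_BA3d, 50% against 51.1% in ARR10_BA, 28% against 37.3% in the list labelled ARR12 mock and 45.5% against 63.0% in ARR1∆DDK. The windows of 121 bases printed above show both kinds, with SAUR28 and SAUR51 holding 2 matches each and SAUR14 and SAUR15 none. The wider window can differ, since the 1 SAUR peak of ARR1_m, at SAUR14 and SAUR15, held AGATHY in 200 bp and not in 100 bp. Every SAUR promoter held AGATHY, as did 99.9% of the others, so that its presence in a promoter does not part bound from unbound members. Promoter shares of the auxin response factor words were 60.8% against 57.6% for TGTCTC and 25.3% against 22.8% for TGTCGG. At the summits TGTCGG was in 7 of 46 SAUR windows in ARR1_BA3d (15.2%), against 7.23% of the others, and in 2 of 34 in ARR10_BA (5.88%), against 7.05%.

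Genes that act with the SAUR proteins were bound as well. These genes and the factors below were chosen with earlier results of these data known, so their shares are a description. Of 9 PP2C.D phosphatase genes, 8 were bound in ARR14_BA3d (88.9%), 4 in ARR10_BA and 4 in ARR10_m (44.4% each), beside 43.8%, 24.7% and 18.9% of the genes outside the SAUR family. ARR1 bound 0 in mock, 5 at 4 h (55.6%) and 8 at 3 days of 6-BA (88.9%), beside 0.409%, 20.3% and 39.4%, and ARR1∆DDK bound none, beside 14.3%. AT3G12620, annotated as a protein phosphatase 2C family protein, had 63.55 in ARR14_BA3d, 41.12 in ARR10_BA and 54.75 in ARR1_BA3d. The proton pump genes HA1 (AHA1) and HA2 (AHA2) were bound in 9 and 7 lists, and HA1 scored 79.69 in the list labelled ARR12 mock, at percentile 1.6.

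Of 8 genes for factors that control SAUR genes (the auxin response factors ARF6, ARF7, ARF8 and ARF19, the light-signalling factors PIF4 and PIF5, and the brassinosteroid factors BZR1 and BES1), all 8 were bound in ARR14_BA3d and ARR1_BA3d, 6 in ARR10_BA, 6 in ARR1_BA and 6 in ARR1∆DDK. The shares of the genes outside the SAUR family in these lists were 43.8%, 39.4%, 24.7%, 20.3% and 14.3%. The paper had already named PIF, BES/BZR and several ARF genes as B-ARR targets, so these counts are no separate support. PIF4 had 260.01 in ARR14_BA3d and 123.38 in ARR1_BA3d, at percentiles 0.765 and 2.30. ARF7 was bound at 3 days alone, with 39.68 in ARR14_BA3d and 37.53 in ARR1_BA3d. Among the other early auxin families, 25 of 32 genes named IAA and a number (3 of them auxin response factors by their other names) and 14 of 22 GH3 genes were bound in ARR1_BA3d, 78.1% and 63.6%, beside 57.0% of the SAUR genes and 39.4% of the genes outside the SAUR family. In ARR10_BA the shares were 56.2% of the IAA genes, 54.5% of the GH3 genes and 45.6% of the SAUR genes, beside 24.7% of the genes outside the SAUR family. The paper had also named Aux/IAA and GH3 genes as targets from these data, so the shares of these families are no separate support either.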

How the data were processed

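ChIP-seq peak lists of the tagged B-ARRs were used as the authors deposited them. Per the labels and the methods of the study, the authors placed reads at unique positions with Bowtie 0.12.7, called peaks against input DNA with MACS2 2.0.10, and combined at least 2 biological replicates by the irreproducible discovery rate. The deposited columns give a peak's position, a score that is 10 times the −log10 p-value, the fold enrichment over input as a ratio, the −log10 p-value and the summit offset. A further deposited score column holds a placeholder. In the text, score means the deposited −log10 p-value. Input and IgG had no list of their own here, and the 2 RNA-seq records, each of several conditions, were not analysed here.

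Chromosome ends of the lists were checked against RefSeq TAIR10.1, which served for genes and sequence. In the list labelled ARR12 mock, 1 peak lay off the nuclear chromosomes and 1 ran past a chromosome end. Summits were assigned to genes with the minimum of 16 and reach of 1.5 kb that the study used. A gene took its highest score, and tied genes shared the smallest percentile among them. For the shares of genes that ranked higher in the first list of a pair, tied genes shared the largest percentile instead. Lists were described, with 95% Wilson intervals and no test, because each condition had 1 list. The members include AT5G01830, which carries the symbol SAUR21 but is annotated as an ARM repeat protein. The gene of the array is SAUR21 by its other annotation (AT5G18030). Members and gene lists were chosen with earlier results of these data known. Named genes were those of clusters of at least 3, those bound in 6 lists or more, the 15 best ranked, those bound in 1 list where 5 or fewer, the genes next to the minimum, and the fixed lists of partners. AGATHY was searched as 6 words (AGAT followed by A, C or T and then C or T) on both strands, in 200 bp at the summit. In a test on simulated summits, 383 of 383 planted gene assignments were recovered. The grouping of the 5 clusters was made after seeing the data, as were 2 alternatives, whole peaks within reach and the family without AT5G01830. Python 3.11.15, NumPy 2.4.6, pandas 2.3.3 and Matplotlib 3.10.9 were used.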

Additional observations from a re-analysis of the deposited data

How the results depend on the processing

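The difference in bound share, SAUR minus other protein-coding genes, stayed positive under every alternative in the lists of ARR14, ARR10 and 6-BA treated ARR1. It shrank to 6.55 and 3.38 percentage points in ARR10_BA and ARR10_m at a minimum score of 30, and to 8.46 in ARR10_BA with equal numbers of top peaks. With every deposited peak it grew to 16.8 in ARR1_BA and 7.56 in ARR1_m and turned to 3.77 in the list labelled ARR12 6-BA. The small differences changed sign elsewhere: in ARR1∆DDK to 1.1 with the nearest gene and 2.57 with equal numbers of top peaks, in etiolated ARR1 to 0.17 around the TSS, and in ARR1_m to −0.0694 at a minimum of 30. Exchanging the ARR12 lists gave 6.21 for the list labelled 6-BA and −2.00 for that labelled mock. Genes gained were the most dependent on list length. With every deposited peak 30 were in ARR1_BA and not in ARR1_m, 14 in ARR1_BA3d and not in ARR1_BA, 1 in ARR10_BA and not in ARR10_m, and 1 for ARR12 in the 6-BA and not the mock label. With equal numbers of top peaks the first 3 counts were 5, 12 and 5. In windows of 100 bp the AGATHY difference turned to −30.3 points in etiolated ARR1 and −38.9 in ARR1_m, which rest on 5 peaks and 1 peak. Of the remaining values, gaps of 5 and 20 kb gave 11 and 9 clusters. No paired analysis was possible because the replicates of a condition were merged into 1 list, and none could be left out. Depth was unknown, so a missing peak does not show that a gene was not bound.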
